A study of Mus musculus with 6 samples.

Results

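Sterol and fatty acid synthesis was followed through 33 genes, chosen by name from the 21878 gene rows that each library of the series holds. They are 5 genes of the SREBP machinery that senses sterols, 19 genes of the sterol branch and 9 genes of the fatty acid branch. All 33 were listed, and 31 passed the filter on low values (at least 1 FPKM in at least 3 libraries, passed by 10449 genes), while Hsd17b7 and Scd1 did not. The libraries came from WT mice (C57BL/6, by the study's methods) and were labelled hematopoietic stem cell (HSC), sorted from bone marrow (BM) as CD34-Flk2-Lineage-Sca1+c-Kit+. RNA-seq compared 3 libraries labelled control with 3 labelled IGF-1, here called control and IGF1, and the study describes subcutaneous recombinant mouse IGF1 (insulin-like growth factor 1) with HSCs taken at day 1 after it, against vehicle. The labels' text on extraction speaks of irradiated mice instead, and the treatment label was followed. The age of the mice is not given in the labels, and nothing in them says that replicates were separate animals, so p-values measure the spread between these libraries, which may be technical.

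Cells build cholesterol from acetyl-CoA through mevalonate, isopentenyl and farnesyl diphosphate, squalene and lanosterol, and they build long and unsaturated fatty acids from the same acetyl-CoA. SREBP transcription factors switch on the genes of both branches: SCAP carries the SREBP precursors from the endoplasmic reticulum (ER) to the Golgi to be cut, and INSIG proteins hold SCAP back when sterols are plentiful. SREBP2 (Srebf2) mainly drives sterol genes and SREBP1 (Srebf1) fatty acid genes, and growth factor signalling through AKT and mTORC1 is known to favour SREBP activity. Dividing blood progenitors use both products for new membranes.

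Sterol enzymes did not move as a block. Acat2 and Nsdhl fell more than 2-fold in IGF1, Sc5d and Elovl5 fell by slightly less, and Srebf1 and Mvk rose, whereas the other 25 tested genes did not pass the test. Calls needed both a change of more than 2-fold and a Benjamini-Hochberg adjusted p under 0.05 (limma over all 10449 genes, on log2(FPKM + 1)), and only the genes with an adjusted p under 0.05 are said to rise or fall. By that rule 2 of 31 genes (6.45%) were called, both lower, beside 6.61% of all genes tested, of which 4.63% were lower and 1.98% higher. The direction of the calls depended on scaling: 1 gene lower (Acat2) and 1 higher (Mvk) were called under 75th percentile scaling, and Mvk alone under median ratio scaling and under quantile normalization. At an adjusted p under 0.05 without the fold threshold the numbers were 6 of 31 (19.4%) and 20.4% of all genes, with 4 of the 6 lower and 2 higher beside 14.1% and 6.26% of all genes. Both shares were near those of all genes.

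A single library decided these counts. Control replicate 2 lay near the IGF1 libraries in most genes: on the first principal component, with 93.2% of the variance, it scored 17.8, where control replicates 1 and 3 scored -64.7 and -64.8 and the IGF1 libraries 36.6 to 37.8. Reads recovered from the steps of the values totalled 11206800 to 15973834 per library, with 11429198 in control replicate 2. FPKM summed over all rows to 466619, 635111 and 466135 in control replicates 1, 2 and 3 and to 677826 to 680285 in IGF1. Dividing each library by its sum was not among the scalings tried. Over genes it differed from the other controls with a chi-squared of 229 to 231 per gene and from IGF1 libraries with 24.6 to 28, while control replicates 1 and 3 differed by 1.52 and the IGF1 libraries among themselves by 1.69 to 1.89, where sampling of reads alone gives about 1. Without it, 13 of 31 genes (41.9%) were called, 12 lower and 1 higher, beside 32.9% of all genes (20.6% lower, 12.3% higher). Without any other single library none of the 31 and none of the 10449 genes was called, and 6 to 8 of the 31 and 2982 to 3205 of all genes had an unadjusted p under 0.05 in limma. Each gene below is therefore given with its 6 values, and its fold change also without control replicate 2.

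**Figure D1:**
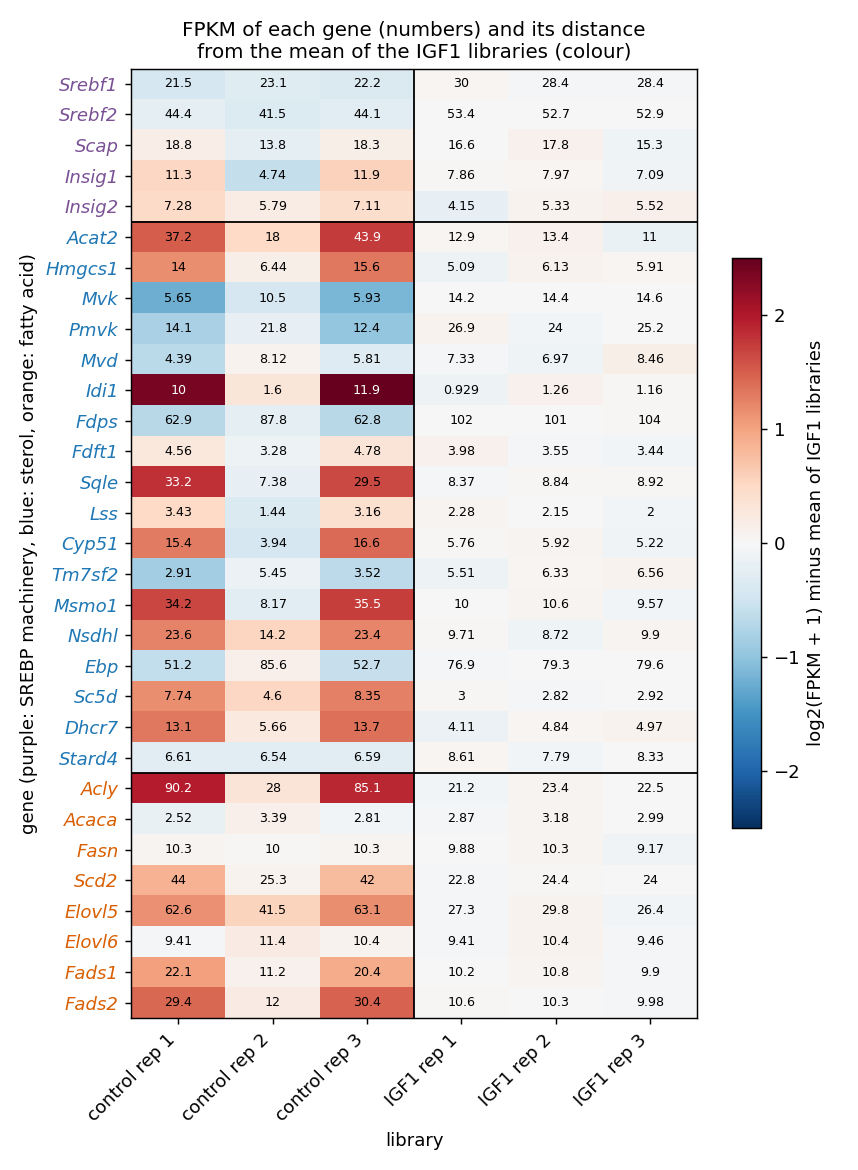
FPKM of the 31 tested genes in each of the 6 libraries (numbers), with colour for the distance of log2(FPKM + 1) from the mean of the 3 IGF1 libraries. Red cells concentrate in control replicates 1 and 3 of enzyme genes such as Idi1, Acly, Sqle and Msmo1, while control replicate 2 is close to the IGF1 columns.

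The members' start sites were examined for SREBP motifs, since SREBPs act at promoters together with NF-Y and Sp1. RefSeq windows on GRCm38.p6 of 250 bases before to 50 after the start site were at hand for 26 of the 33 genes, and were searched on both strands. The sterol regulatory element core TCACNCCAC was found in 1 of the 26, Hmgcs1, beside 1.44% of 27025 genes with a window. There it reads TCACCCCAC and begins 137 bases before the start site (position -137). The NF-Y box CCAAT was in 21 of 26 genes, 14 of 15 in the sterol branch, 3 of 6 in the fatty acid branch and 4 of 5 in the SREBP machinery, beside 41.1% of all genes. The GC box GGGCGG, to which Sp1 binds, was also in 21 of 26, with 14 of 15 sterol, 2 of 6 fatty acid and 5 of 5 SREBP machinery genes, beside 38.2% of all. CACGTG, the E-box, was in 6 of 26 beside 8.09% of all. A match of letters is a description and shows no binding. Of the 5 upstream stretches below (250 bases, 5' to 3'), Hmgcs1 holds the sterol element, Idi1 and Acly had the lowest fold changes of their branches, Msmo1 was among the genes where control replicate 2 lay below IGF1, and Mvk rose. Capitals mark TCACNCCAC or CCAAT, the latter also as its reverse complement ATTGG.
Hmgcs1 (chr13:119690101-119690350, plus strand): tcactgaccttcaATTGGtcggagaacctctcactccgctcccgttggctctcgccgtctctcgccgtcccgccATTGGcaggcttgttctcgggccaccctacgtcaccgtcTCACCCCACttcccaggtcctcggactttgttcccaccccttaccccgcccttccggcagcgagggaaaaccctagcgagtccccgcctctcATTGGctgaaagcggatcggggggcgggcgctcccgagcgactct
Idi1 (chr13:8885356-8885605, plus strand): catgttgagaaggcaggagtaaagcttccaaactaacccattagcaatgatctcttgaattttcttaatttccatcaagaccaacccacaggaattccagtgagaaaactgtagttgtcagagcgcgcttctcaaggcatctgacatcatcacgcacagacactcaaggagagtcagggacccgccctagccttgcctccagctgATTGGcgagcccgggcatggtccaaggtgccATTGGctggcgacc
Msmo1 (chr8:64733579-64733828, minus strand): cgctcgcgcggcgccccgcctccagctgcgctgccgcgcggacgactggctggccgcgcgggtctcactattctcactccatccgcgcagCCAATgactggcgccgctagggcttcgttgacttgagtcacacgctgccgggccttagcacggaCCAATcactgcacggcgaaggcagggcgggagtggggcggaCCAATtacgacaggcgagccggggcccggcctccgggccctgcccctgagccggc
Mvk (chr5:114444019-114444268, plus strand): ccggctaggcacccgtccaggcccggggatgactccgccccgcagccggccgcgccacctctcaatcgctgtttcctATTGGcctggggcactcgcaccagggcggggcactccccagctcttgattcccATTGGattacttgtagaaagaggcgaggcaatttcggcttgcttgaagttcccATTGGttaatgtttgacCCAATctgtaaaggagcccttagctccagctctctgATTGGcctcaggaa
Acly (chr11:100528001-100528250, minus strand): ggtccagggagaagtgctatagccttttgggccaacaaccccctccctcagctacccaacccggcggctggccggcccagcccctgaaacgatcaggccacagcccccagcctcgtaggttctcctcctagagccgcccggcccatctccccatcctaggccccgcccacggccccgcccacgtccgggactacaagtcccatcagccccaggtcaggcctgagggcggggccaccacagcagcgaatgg
Mvk, which rose, holds 5 NF-Y boxes in its stretch, Hmgcs1 and Msmo1 hold 3 each, Idi1 holds 2 and Acly holds 0. The box thus stood upstream of genes on either side of zero.

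Within the SREBP machinery Srebf1 rose and the other 4 genes did not pass the test. Srebf1 (chr11:60199089-60222581, minus strand), for SREBP1, was at 21.5, 23.1 and 22.2 FPKM in the controls and at 30.0, 28.4 and 28.4 in the IGF1 libraries (here and below, replicates 1, 2 and 3 in that order). In FPKM as deposited the groups did not overlap and control replicate 2 sat with the other controls. Srebf1 rose 1.30-fold in mean FPKM, by 0.36 ± 0.0911 (SE) on the log2 scale (adjusted p = 0.0459 in limma). The sums of FPKM differ between the libraries, and whether this rise and this order hold at equal sums was not tested. Its log2 fold change was 0.39 when control replicate 2 was left out. With trends on length and GC removed over all libraries it was 0.31 and no longer passed (adjusted p = 0.0614, limma). Its annotated exons share 109 bases with Rai1 on the opposite strand (3.69 to 8.25 FPKM).

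Srebf2 (chr15:82147181-82205379, plus strand), for SREBP2, was at 44.4, 41.5 and 44.1 FPKM in control and at 53.4, 52.7 and 52.9 in IGF1. All 3 IGF1 values were above all 3 controls, with a log2 fold change of 0.28 ± 0.0872 (SE), but the adjusted p was 0.0576 (limma). Per unit of length Srebf2 was above Srebf1 in each of the 6 libraries.

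Scap, the SREBP escort, held 18.8, 13.8 and 18.3 FPKM in control and 16.6, 17.8 and 15.3 in IGF1, and its groups overlapped (log2 fold change -0.02 ± 0.150, adjusted p = 0.903 in limma). Insig1, itself a classical SREBP target, had 11.3, 4.74 and 11.9 FPKM in control and 7.86, 7.97 and 7.09 in IGF1. Control replicate 2 was the lowest library for Insig1 and the other controls the highest, so the fold change of -0.17 ± 0.327 (adjusted p = 0.673, limma) averages values on both sides of IGF1. The signs of Scap and Insig1 turned positive under 3 other scalings of the libraries (75th percentile, median ratio and quantile).

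Insig2, the paralog that is less tied to SREBP, had 7.28, 5.79 and 7.11 FPKM in control and 4.15, 5.33 and 5.52 in IGF1. All its control values were above all IGF1 values, with a log2 fold change of -0.37 ± 0.153 (adjusted p = 0.0979, limma). Insig1 stood at -0.55 and Insig2 at -0.46 without control replicate 2.

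The first steps, from acetyl-CoA to farnesyl diphosphate, split in direction: of 7 genes, 3 had fold changes below 0 (Acat2, Hmgcs1, Idi1) and 4 above 0 (Mvk, Pmvk, Mvd, Fdps). Acat2 (chr17:12942890-12960747, minus strand), the cytosolic thiolase that joins acetyl-CoA units, was measured at 37.2, 18.0 and 43.9 FPKM in control and at 12.9, 13.4 and 11 in IGF1. Control replicate 2 lay between the groups but above all IGF1 libraries. Acat2 fell to 0.376 of the control mean FPKM, a log2 fold change of -1.25 ± 0.330 (adjusted p = 0.0483, limma), and -1.63 ± 0.0879 without control replicate 2. Its call is near the threshold: over the 3 other scalings its adjusted p ran from 0.0483 to 0.0514, with no filter on low values it was 0.0591, and on the recovered reads 0.0502. Acat3, a close copy, was at 0.0627 to 0.435 FPKM.

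Hmgcs1, the HMG-CoA synthase with the sterol element shown above, gave 14.0, 6.44 and 15.6 FPKM in control and 5.09, 6.13 and 5.91 in IGF1. Its lowest control was barely above its highest IGF1 library, and its log2 fold change was -0.87 ± 0.319 (adjusted p = 0.0756, limma). It was not called with all libraries and was called, at -1.24 ± 0.0812, without control replicate 2.

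Idi1 (chr13:8885501-8892451, plus strand), which isomerises isopentenyl diphosphate, had the lowest fold change of all 31 genes. It was at 10, 1.60 and 11.9 FPKM in control, from 461, 53 and 551 recovered reads, and at 0.93, 1.26 and 1.16 FPKM in IGF1, from 33, 41 and 43 reads. Control replicate 2 was thus within 1 FPKM of each IGF1 library and far below the other controls. The log2 fold change was -1.77 ± 0.611 with all libraries (adjusted p = 0.0693, limma) and -2.498 ± 0.0970 without control replicate 2. Idi2, its close copy, stayed at 0 to 0.0394 FPKM.

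Mvk (chr5:114444269-114460591, plus strand), mevalonate kinase, moved the other way. It held 5.65, 10.5 and 5.93 FPKM in control against 14.2, 14.4 and 14.6 in IGF1, so that every IGF1 library was above every control. Mvk rose 1.95-fold in mean FPKM, by 0.93 ± 0.229 on the log2 scale (adjusted p = 0.0458, limma), and by 1.18 ± 0.0540 without control replicate 2. Under the 3 other scalings the rise was 1.12 to 1.19 and Mvk was called.

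The next kinases and the decarboxylase leaned the same way without passing the test. Pmvk, phosphomevalonate kinase, had 14.1, 21.8 and 12.4 FPKM in control and 26.9, 24.0 and 25.2 in IGF1, which do not overlap (0.66 ± 0.211, adjusted p = 0.0609, limma). Mvd, the mevalonate diphosphate decarboxylase, had 4.39, 8.12 and 5.81 against 7.33, 6.97 and 8.46 FPKM, which do (0.30 ± 0.214, adjusted p = 0.268, limma). Fdps, farnesyl diphosphate synthase and the sterol gene with the highest mean FPKM, was at 62.9, 87.8 and 62.8 in control and 102, 101 and 104 in IGF1, without overlap (0.53 ± 0.156, adjusted p = 0.0543, limma). In Mvk and in these 3 genes control replicate 2 was the highest control.

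From squalene to cholesterol, 8 of 10 tested genes had fold changes below 0 and 2 above 0, with a median of -0.87. Nsdhl (chrX:72918557-72958514, plus strand), the sterol dehydrogenase of C4 demethylation, had the smallest adjusted p of the sterol branch. Its values were 23.6, 14.2 and 23.4 FPKM in control and 9.71, 8.72 and 9.90 in IGF1, with no overlap. Nsdhl fell to 0.463 of the control mean, a log2 fold change of -1.002 ± 0.214 (adjusted p = 0.0395, limma), and of -1.23 ± 0.0610 without control replicate 2. The fold sat on the threshold: under the 3 other scalings it was -0.68 to -0.80, with adjusted p of 0.0340 to 0.0395, so the fall held and the call did not.

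Sc5d, lathosterol oxidase, was at 7.74, 4.60 and 8.35 FPKM in control and at 3, 2.82 and 2.92 in IGF1. The groups were apart and Sc5d fell by 0.98 on the log2 scale (SE 0.215, adjusted p = 0.0412, limma), slightly under the 2-fold threshold. Dhcr7, which makes cholesterol in the last step, gave 13.1, 5.66 and 13.7 FPKM in control and 4.11, 4.84 and 4.97 in IGF1. Its groups were also apart, with a log2 fold change of -0.98 ± 0.324 (adjusted p = 0.0636, limma), and -1.35 ± 0.0775 without control replicate 2.

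In 3 well-expressed genes of these steps control replicate 2 lay below every IGF1 library while the other controls lay above. Sqle, squalene epoxidase and a rate-limiting enzyme, was at 33.2, 7.38 and 29.5 FPKM in control and 8.37, 8.84 and 8.92 in IGF1. Cyp51, lanosterol demethylase, was at 15.4, 3.94 and 16.6 against 5.76, 5.92 and 5.22. Msmo1, the C4-methyl sterol oxidase, was at 34.2, 8.17 and 35.5 against 10, 10.6 and 9.57. Control replicates 1 and 3 were thus far above IGF1 and control replicate 2 under it, and none of the 3 genes passed the test with all libraries.

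Fitted over all 6 libraries, Sqle had a log2 fold change of -1.08 ± 0.540 (adjusted p = 0.141, limma). Cyp51 was at -0.76 ± 0.497 (adjusted p = 0.233, limma) and Msmo1 at -1.04 ± 0.544 (adjusted p = 0.155, limma). All 3 were called without control replicate 2, at -1.73 ± 0.0615 for Sqle, -1.36 ± 0.0683 for Cyp51 and -1.70 ± 0.0548 for Msmo1. Cyp51 shares 166 annotated exon bases with Akap9 on the opposite strand (2.83 to 6.10 FPKM).

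The same order of libraries appeared in the low genes around them. Fdft1, squalene synthase, was at 4.56, 3.28 and 4.78 FPKM in control and 3.98, 3.55 and 3.44 in IGF1 (log2 fold change -0.15 ± 0.154, adjusted p = 0.430, limma). Lss, lanosterol synthase, was at 3.43, 1.44 and 3.16 against 2.28, 2.15 and 2 (-0.18 ± 0.242, adjusted p = 0.545, limma). Fdft1 turned positive under the 3 other scalings and Lss under the 75th percentile alone. Fdft1 also shares 774 annotated exon bases with Ctsb on the opposite strand (51.6 to 84.3 FPKM), and whether the counting used strand is not given in the sources used here, so its level is uncertain.

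Tm7sf2 and Ebp were the late enzymes on the other side. Tm7sf2, a sterol C14 reductase, had 2.91, 5.45 and 3.52 FPKM in control and 5.51, 6.33 and 6.56 in IGF1, all above the controls (0.55 ± 0.209, adjusted p = 0.0802, limma). It shares 532 exon bases with Vps51 on the same strand (21.1 to 24.9 FPKM) and is uncertain. Ebp, the sterol isomerase, had 51.2, 85.6 and 52.7 against 76.9, 79.3 and 79.6 FPKM, with control replicate 2 the highest of all 6 (0.35 ± 0.212, adjusted p = 0.203, limma).

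Hsd17b7, the 3-ketosteroid reductase of the pathway, was under the filter. It held 1.95, 0.652 and 1.73 FPKM in control (174, 42 and 156 reads) and 0.795, 0.664 and 0.570 in IGF1 (55, 42 and 41 reads). Stard4, a cytosolic sterol carrier and not an enzyme, was the gene in which control replicate 2 matched the other controls best in FPKM as deposited. It had 6.61, 6.54 and 6.59 FPKM in control and 8.61, 7.79 and 8.33 in IGF1, without overlap (0.29 ± 0.106, adjusted p = 0.0775, limma), and 0.28 without control replicate 2.

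**Figure D2:**
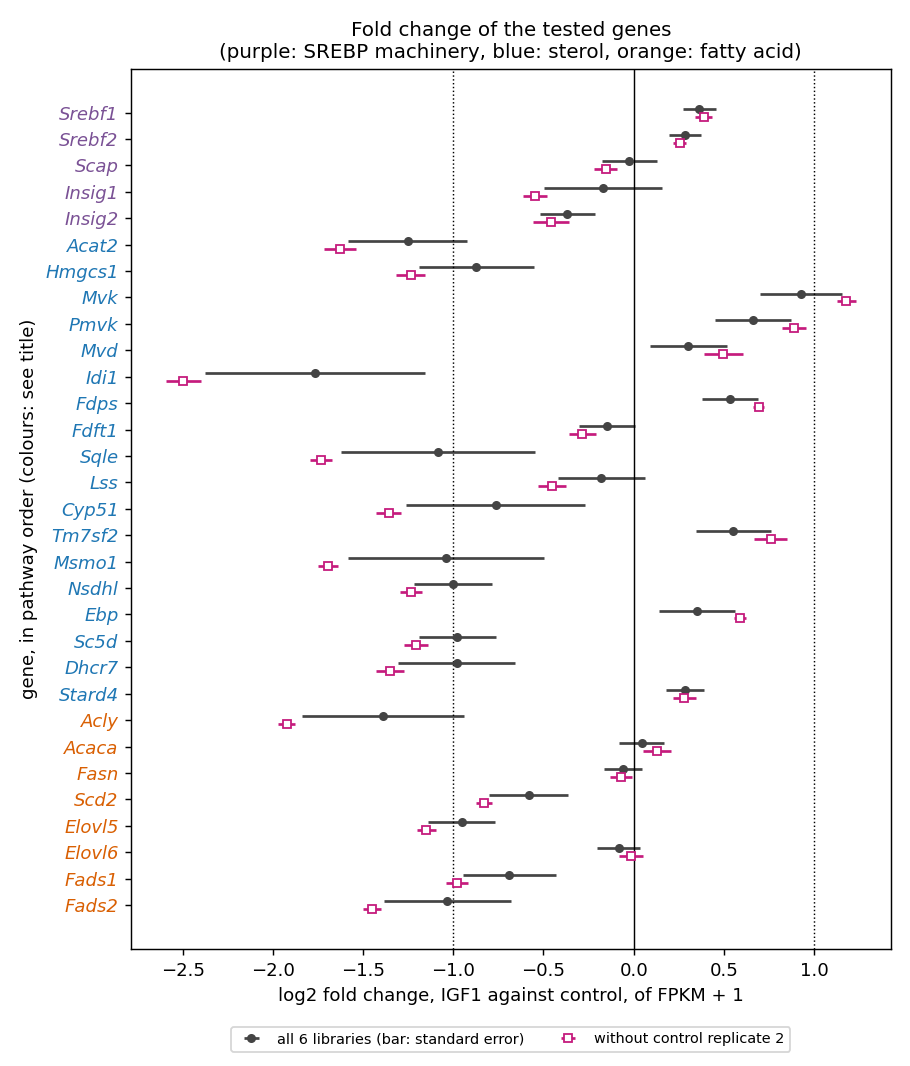
Log2 fold change of FPKM + 1, IGF1 against control, for the 31 tested genes in pathway order, with all 6 libraries (filled circles, bars for the standard error) and without control replicate 2 (open squares); dotted lines mark a 2-fold change. The squares have shorter bars and lie farther from 0 for most enzymes, from -2.498 for Idi1 to 1.18 for Mvk.

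Of 8 tested genes of the fatty acid branch 7 had fold changes below 0, and Elovl5 alone had an adjusted p under 0.05. Elovl5 (chr9:77917364-77984519, plus strand), an elongase of polyunsaturated chains, gave 62.6, 41.5 and 63.1 FPKM in control and 27.3, 29.8 and 26.4 in IGF1. Control replicate 2 lay midway and no values overlapped. Elovl5 fell to 0.499 of the control mean FPKM, by 0.95 on the log2 scale (SE 0.185, adjusted p = 0.0367, limma), the smallest adjusted p of all 31 genes. It was called when control replicate 2 was left out, at -1.15 ± 0.0517.

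Acly (chr11:100476353-100528000, minus strand), ATP citrate lyase, supplies cytosolic acetyl-CoA to both branches. It held 90.2, 28.0 and 85.1 FPKM in control and 21.2, 23.4 and 22.5 in IGF1. The lowest control was above the highest IGF1 library, by far less than its distance to the other controls. Acly had a log2 fold change of -1.39 ± 0.448 (adjusted p = 0.0616, limma) and of -1.93 ± 0.0498 without control replicate 2.

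The desaturases followed the same layout. Fads2, the delta-6 desaturase, was at 29.4, 12 and 30.4 FPKM in control and 10.6, 10.3 and 9.98 in IGF1 (-1.03 ± 0.354, adjusted p = 0.0683, limma; -1.45 ± 0.0498 without control replicate 2). Fads1, the delta-5 desaturase, was at 22.1, 11.2 and 20.4 against 10.2, 10.8 and 9.90 (-0.69 ± 0.258, adjusted p = 0.0796, limma). Scd2, a stearoyl-CoA desaturase, was at 44.0, 25.3 and 42.0 against 22.8, 24.4 and 24.0 (-0.58 ± 0.220, adjusted p = 0.0803, limma). In each of the 3, every control was above every IGF1 library, control replicate 2 by the least. Scd1, the paralog of liver and fat, was near 0, with 4, 0 and 4 reads in control and 1, 0 and 0 in IGF1, and Scd3 and Scd4 did not exceed 0.144 FPKM, so Scd2 carried nearly all of the stearoyl-CoA desaturase signal.

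Fasn, Acaca and Elovl6, of chain building and extension, did not pass the test. Fasn, fatty acid synthase, was at 10.3, 10 and 10.3 FPKM in control and 9.88, 10.3 and 9.17 in IGF1. Its log2 fold change was -0.06, with a 95% interval of -0.32 to 0.20 (adjusted p = 0.647, limma). Acaca, the acetyl-CoA carboxylase that commits carbon to the branch, was at 2.52, 3.39 and 2.81 against 2.87, 3.18 and 2.99 (0.04 ± 0.124, adjusted p = 0.775, limma). Elovl6, which extends palmitate, was at 9.41, 11.4 and 10.4 against 9.41, 10.4 and 9.46, with an interval of -0.38 to 0.21 (adjusted p = 0.576, limma). The signs of Fasn and Elovl6 turned positive under the 3 other scalings. Without control replicate 2, too, these 3 genes did not pass the test (adjusted p of 0.132 for Acaca, 0.296 for Fasn and 0.810 for Elovl6, limma).

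The medians of the branches were close with all libraries as deposited. The median log2 fold change was -0.47 over 18 sterol genes and -0.64 over 8 fatty acid genes, a difference of 0.17, beside -0.18 for all genes tested and -0.02 for the 5 genes of the SREBP machinery. Without control replicate 2 the medians were -0.83 and -0.91, beside -0.25 for all genes. Other scalings brought the median of all genes to 0.04, 0.01 and -0.02 (75th percentile, median ratio and quantile), the sterol median to -0.26, -0.29 and -0.27 and the fatty acid median to -0.39, -0.43 and -0.34. Under each of these settings the sterol median was the higher of the pair, but its genes reached from -1.77 to 0.93 and those of the fatty acid branch from -1.39 to 0.04, and no test was made of the difference. With a minimum of 5 FPKM in place of 1 the difference was 0.45.

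Both branches were higher in control replicates 1 and 3 than in IGF1, and control replicate 2 set them apart. Relative to the IGF1 mean of each gene, the sterol median was 0.83, -0.13 and 0.82 in control replicates 1, 2 and 3, and the fatty acid median was 0.95, 0.17 and 0.86. The sterol minus fatty acid difference was -0.30 in control replicate 2 and -0.12 to 0.06 in the other libraries. In IGF1 the sterol medians ran from 0.00 to 0.02 and the fatty acid medians from -0.04 to 0.06. All genes tested had 0.25, 0.06 and 0.25 in the controls. The machinery was at 0.18, -0.31 and 0.14, so control replicate 2 had its lowest medians there and in the sterol branch, below IGF1 in both.

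Overlap of the groups was no guide to these genes. Groups did not overlap in 19 of 31 (61.3%), 12 lower and 7 higher, beside 59.4% of all genes tested (37.4% lower, 21.9% higher). Fold changes were below 0 in 21 of 31 (67.7%), beside 59.6% of all genes. An exact permutation test of a single gene cannot go below p = 0.1 with 3 libraries against 3, which is the value of all 19. Control replicates 1 and 3 alone lay on 1 side of every IGF1 library in 29 of 31 genes, 19 above and 10 below, beside 91.9% of all genes (55.2% above, 36.7% below).

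Control replicate 2 was nearer to the IGF1 mean than to the other controls in 27 of 31 genes (87.1%), beside 77.3% of all genes tested. On the way from the other controls to IGF1 it had covered a median of 86.3% of the distance in the 31 genes and of 80.8% in all genes, a share that is 100% where it equals IGF1 and higher where it passes it. Squalene to cholesterol genes had a median of 114%, the earlier sterol steps 76.1%, the fatty acid branch 87.7% and the machinery 59.5%. It passed below every IGF1 library, with the other controls above, in 7 of 31 genes (22.6%), beside 10.0% of all genes: Scap, Insig1, Fdft1, Sqle, Lss, Cyp51 and Msmo1. Of the 7, 5 belong to the squalene to cholesterol steps and none to the fatty acid branch. The reverse layout, with control replicate 2 above and the other controls below every IGF1 library, was seen in 2 of 31 genes (Ebp and Acaca), beside 9.06% of all genes. These are values of 1 library and carry no test.

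**Figure D3:**
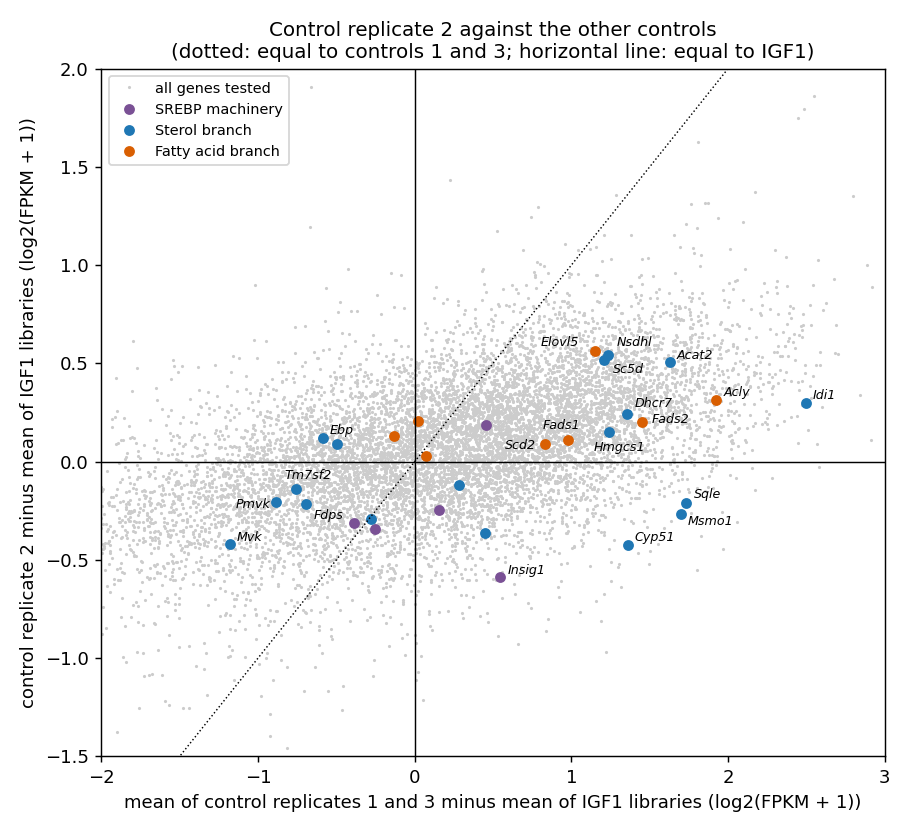
Each point is a gene: horizontally, the mean of control replicates 1 and 3 minus the mean of the IGF1 libraries; vertically, control replicate 2 minus the same IGF1 mean, both in log2(FPKM + 1), with grey for all genes tested (a few lie outside the axes). Points on the dotted line would have control replicate 2 equal to the other controls; most lie nearer the horizontal line, and Sqle, Msmo1, Cyp51 and Insig1 lie under it on the right.

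Without control replicate 2, the 12 genes called lower were Acat2, Hmgcs1, Idi1, Sqle, Cyp51, Msmo1, Nsdhl, Sc5d, Dhcr7, Acly, Elovl5 and Fads2, and Mvk was called higher. An adjusted p under 0.05 was then reached by 28 of 31 (90.3%), beside 88.5% of all genes, so that rule no longer tells genes apart. The exceptions were Acaca, Fasn and Elovl6. Of the sterol branch 9 were called lower and 1 higher, of the fatty acid branch 3 lower and 0 higher, and of the machinery 0. The study's labels give no ground to leave out this library, and both sets of values stand.

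Fold changes had a rank correlation of 0.39 with GC content and of -0.21 with transcript length over the 10101 genes with both, and of 0.47 and -0.05 over the 31, as a description across genes that share the same 6 libraries. GC-rich transcripts with values above 0 included Mvk (56.3% GC), Pmvk (57.0%), Srebf1 (58.4%) and Srebf2 (57.9%), and AT-rich ones with values below 0 included Idi1 (41.9%), Sc5d (42.9%) and Hmgcs1 (43.1%). Against this order, Fads2 (54.4%) and Dhcr7 (52.8%) were below 0 and Stard4 (43.9%) above it, and GC-rich Scap (59.1%) and Fasn (57.9%) were at -0.02 and -0.06. When smooth trends of the values on length and GC were removed within each library, 304 of 10101 genes (3.01%) and 0 of the 31 were called. The sterol median went to -0.15 and the fatty acid median to -0.39, beside -0.04 for all genes.

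Single genes responded unequally to this step. Idi1 went from -1.77 to -1.07, Hmgcs1 from -0.87 to -0.20, Elovl5 from -0.95 to -0.36 and Pmvk from 0.66 to 0.08, while Acly went from -1.39 to -1.19, Acat2 from -1.25 to -1.01 and Mvk was at 0.93 before and after. Fdps grew to 0.91, Tm7sf2 to 0.92 and Stard4 to 0.74, and Fasn went to -0.58 (adjusted p = 0.0537 in limma, and -0.74 with adjusted p = 2.09e-06 without control replicate 2). Nsdhl (-0.62, adjusted p = 0.0453), Sc5d (-0.46, adjusted p = 0.0453), Elovl5 (adjusted p = 0.0422) and Stard4 (adjusted p = 0.0373) had an adjusted p under 0.05 in limma. Without control replicate 2 as well, 8 genes were called, beside 20.7% of all: Acat2, Acly, Fads2, Idi1 and Sqle lower, and Fdps, Mvk and Tm7sf2 higher. The part of length and base composition in the fold changes was not tested further.

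**Figure D4:**
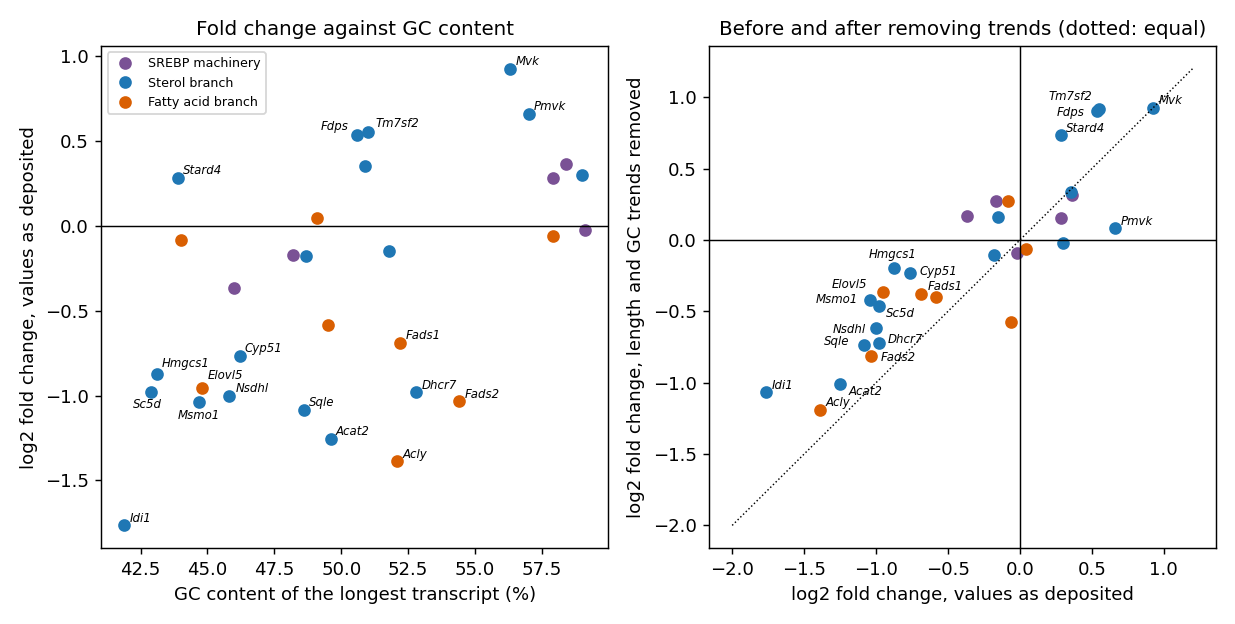
Left, log2 fold change of the tested genes (IGF1 against control, log2(FPKM + 1)) against GC content of the longest reference transcript in percent; right, the same fold change against its value after trends on length and GC were removed, with the dotted line for equal values. Lower genes at left rise toward 0 at right, Hmgcs1 to -0.20 and Elovl5 to -0.36, whereas Acly, Acat2 and Mvk stay near the line.

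Neighbouring steps were read from 4 further lists. Of 15 tested genes that process or degrade SREBPs and their regulators all 15 were below 0, beside 59.6% of all genes. Their median was -0.68, and 1 was called. That gene was Rnf139, an ER ubiquitin ligase, at 11.5, 3.09 and 12.1 FPKM in control and 1.22, 1.17 and 1.19 in IGF1. It fell with a log2 fold change of -1.996 ± 0.458 (adjusted p = 0.0427, limma), further than any of the 31 synthesis genes. Leaving out control replicate 2, 7 of the 15 were called, all lower, beside 20.6% of all genes called lower in that fit. With all libraries 2 of the 15 were lower and 0 higher at an adjusted p under 0.05 in limma, beside 14.1% and 6.26% of all genes. With length and GC trends removed the median of the 15 was -0.31. In that setting 14 of the 15 were below 0, beside 5315 of 10101 genes, and Mbtps2 was at 0.37.

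Genes that use farnesyl and geranylgeranyl diphosphate numbered 14, of which 12 were below 0 with a median of -0.38. Pdss1, which builds the tail of coenzyme Q, was the 1 called, at 11.5, 6.83 and 10.6 FPKM in control and 3.79, 3.69 and 2.98 in IGF1 (log2 fold change -1.22 ± 0.210, adjusted p = 0.0322, limma). Control replicate 2 lay nearer the other controls than IGF1 for this gene. With length and GC trends removed Pdss1 was at -0.79, and 0 of the 14 were called. Of the 14, 4 were lower and 0 higher at an adjusted p under 0.05 in limma, beside 14.1% and 6.26% of all genes. Sterol sensing, esterification, traffic and efflux genes were evenly split, 8 below and 8 above 0, with a median of -0.08 and 0 called. At an adjusted p under 0.05 in limma 1 of these 16 was lower and 2 were higher, beside 14.1% and 6.26% of all genes.

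Acyl-CoA supply, elongation and lipid assembly had 16 of 21 tested genes below 0, a median of -0.58 and 0 called. Of the 21, 3 were lower and 0 higher at an adjusted p under 0.05 in limma, beside 14.1% and 6.26% of all genes. Leaving out control replicate 2, 7 of the 21 were called, all lower. In that fit 2 of the 14 isoprenoid genes were called lower, and of the 16 sensing and traffic genes 2 were called lower and 2 higher. The background was 6.61% called and a median of -0.18 over all genes with all libraries, and 32.9% called (20.6% lower, 12.3% higher) without control replicate 2.

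Some markers of the sorted cells had the same order of libraries and others did not, and bulk values cannot tell fewer cells of a type from less RNA per cell. Against the CD34-Flk2- gate, Cd34 was at 640, 265 and 634 FPKM in control and 231, 238 and 230 in IGF1, and Flt3 (Flk2) at 117, 172 and 117 against 187, 188 and 183. Kit was at 105, 31.4 and 104 against 24.6, 24.4 and 24.2. The 10 HSC identity genes were all listed, with summed levels of 493, 725 and 508 FPKM in control and 463 to 480 in IGF1, so that control replicate 2 stood alone there, as it did in the erythroid sum (34.0, 96.5 and 37.2 against 45.2 to 51.1), though Slamf1 and Mecom did not exceed 4.10. Summed B cell markers were 91.7, 296 and 90.7 FPKM in control and 295 to 311 in IGF1 (2 of 7 under 1 FPKM throughout), while the T and NK sum was nearly all Nkg7 (366, 776 and 356 FPKM against 767 to 787), with Cd3d, Cd3e, Cd3g and Klrb1c at 0 to 1.23. Neutrophil and monocyte markers differed in direction: 4 of 9 tested were called lower, among them Ngp at 79.0, 11.5 and 78.2 FPKM in control and 2.22 to 3.73 in IGF1, while Elane was at 92.8, 576 and 92.4 against 692 to 709, and the summed 10 were at 3200 to 5430 against 5480 to 5530. Megakaryocyte markers summed to 52.3 to 73.9 FPKM in control against 90.3 to 101 in IGF1, but did not share a direction. Pf4 (15.6, 48.6 and 15.1 against 63.1 to 73.7) and Gp9 (2.83, 6.04 and 3.16 against 6.85 to 8.39) went with the sum. Itga2b was at 32.2, 16.8 and 32.3 against 17.9 to 19.3, and Gp1ba and Ppbp were at 0.573 to 1.43 in all libraries. Adipocytes, rich in these enzymes, left little: Cidec and Lep were at 0 in all 6 libraries. The 5 adipocyte markers summed to 5.13, 0.197 and 4.86 FPKM in control and 2.03 to 3.21 in IGF1. Stromal and endothelial markers summed to 33.2, 18.0 and 35.9 FPKM against 21.7 to 22.9. That sum was nearly all Pecam1 (31.7, 17.5 and 34.4 against 20.8 to 21.8), and 5 of the 6 markers were under 1 FPKM throughout. The part of these markers in the fold changes of the synthesis genes was not tested.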

How the data were processed

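RNA-seq values of libraries labelled HSC were used, 3 control and 3 IGF1, grouped by the treatment label. The authors deposited 1 FPKM value (fragments per kilobase of transcript, scaled to mapped depth) for each of 21878 gene rows per library. The submitters' processing notes name fastp, HISAT2, StringTie and GRCm38 (mm10), while the study's methods name RSEM, and counting settings are not given in the sources used here. The study fitted a count model, whereas the FPKM were tested here.

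Genes that reached 1 FPKM in 3 or more libraries were fitted on log2(FPKM + 1), a pseudocount of 1. The fit used lmFit and trended eBayes of limma 3.58.1 (R 4.3.3), with Benjamini-Hochberg adjustment over all 10449 genes and the study's thresholds of fold 2 and adjusted p 0.05. Fold changes are therefore on the log2(FPKM + 1) scale, which understates changes of low genes. The script was tested on simulated data. The values of a gene rose in whole steps, which gave whole reads for 15640 of 15640 rows above 0 (within 0.02 of a read), against 0.6% of 1000 jittered rows. The length implied by a step had a rank correlation of 0.803 with annotated length over 12161 genes, so the unit was taken as FPKM. These reads gave the depth of each library, served 1 alternative and limit the precision of low genes, and chi-squared between libraries covers counting error only.

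The members, the lists, and the rule for named genes were chosen with earlier results of these data known. By that rule every tested member was named, and those called, those called without control replicate 2, the smallest adjusted p of each group and the paralogs were given in full, as were called genes of the neighbouring lists. Rnf139 and Pdss1 come from the latter. Length, GC content, gene coordinates and exon overlap came from GENCODE M21 (GRCm38) and promoters from RefSeq (GRCm38.p6). Length and GC were known for 96.7% of tested genes. Alternatives were 75th percentile, median ratio and quantile scaling, leaving the filter out or raising it to 5 FPKM, a pseudocount of 0.1 or 5, eBayes without its trend, library weights, length and GC trends removed, a replicate block, voom on recovered reads, other thresholds, and each library left out. Date-like names (27 rows) and shared names (4 rows) touch no member.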

Additional observations from a re-analysis of the deposited data

How the results depend on the processing

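Of 31 tested genes, 22 kept 1 sign in every one of the 18 alternatives that included them. The minimum of 5 FPKM included 26 and left out 5 (Idi1, Sc5d, Fdft1, Lss and Acaca). Leaving out 1 library gave 0 to 3438 genes and 0 to 13 members called, the highest without control replicate 2 and 0 without any other. The branch medians then ran from -0.83 to -0.25 for sterol and from -0.91 to -0.48 for fatty acid genes, and their difference from 0.08 to 0.27. Library weights, which gave control replicate 2 a weight of 0.0137, called 3435 genes and 13 members. Genes and members called were 374 and 1 with no filter on low values, 223 and 0 at a pseudocount of 5, 304 and 0 with length and GC trends removed, 2130 and 6 without the fold threshold, and 1646 and 5 at a fold of 1.5. Members called were 4 at a pseudocount of 0.1 and 1 under median ratio scaling and under quantile normalization. Voom on the recovered reads, chosen after seeing the data, called 1059 genes and 3 members. With a minimum of 5 FPKM the sterol minus fatty acid median moved to 0.45. The cause of these shifts was not tested.

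With the replicate number as a block, 0 genes and 0 members were called in limma, with 4791 genes and 14 members at an unadjusted p under 0.05. Deviations of same-numbered libraries from their group means correlated at -0.06, -0.05 and 0.01. Control replicate 2 dominates the deviations of all controls, so these correlations cannot tell whether the numbers pair the samples.

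Called genes were higher in 30.0% of cases as deposited, 53.7% under 75th percentile scaling, 56.5% under median ratio, 48.8% under quantile and 50.3% with length and GC trends removed. Signs turned as follows. Under 75th percentile scaling Scap was at 0.22, Insig1 at 0.064, Fdft1 at 0.057, Lss at 0.009, Fasn at 0.17 and Elovl6 at 0.15. Under median ratio scaling Scap was at 0.19, Insig1 at 0.031, Fdft1 at 0.029, Fasn at 0.14 and Elovl6 at 0.12. Under quantile normalization Scap was at 0.31, Insig1 at 0.16, Fdft1 at 0.025, Fasn at 0.25 and Elovl6 at 0.23. With length and GC trends removed Insig1 was at 0.27, Insig2 at 0.17, Mvd at -0.023, Fdft1 at 0.16, Acaca at -0.065 and Elovl6 at 0.27. With 1 library left out at a time, Scap ran from -0.156 to 0.054, Insig1 from -0.546 to 0.037 and Acaca from -0.029 to 0.131, the low end of the first 2 and the high end of Acaca without control replicate 2. Depth limits Hsd17b7, Idi1 in IGF1 and Scd1, which rest on 55 reads or fewer in 4 or more libraries.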
